A study of Danio rerio with 5 samples.

Results

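The nuclear-encoded subunits of the mitochondrial respiratory chain and ATP synthase were compared across 3 sorted populations of zebrafish epidermal cells. Members were the gene symbols of the count table that begin with nduf, sdha to sdhd, uqcr, cox4 to cox8 or atp5, without the ndufaf and sdhaf assembly factors. There were 92 such symbols among 30875 in all, of which 38 belonged to complex I, 5 to complex II, 8 to complex III, 24 to complex IV and 17 to complex V. The ndufa4 copies were placed in complex IV, where their protein is known to sit. Each symbol was represented by its row with the highest mean count, and 20 symbols have since been renamed in RefSeq: atp5g3a is now atp5mc3a, atp5g3b is atp5mc3b, cox7a3 is cox7a2l, ndufa4 is ndufa4b, ndufa4l is ndufa4a and atp5s is dmac2l.

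The first population, adult basal cells of the caudal fin, came from Tg(itgb4:mcherry) fish and made 1 library. Embryonic basal precursors were mCherry-positive cells of the same line at 1 dpf (day post fertilization) and made 2 libraries. Embryonic periderm, the outer layer of the embryonic skin, was sorted at 1 dpf from embryos that carried the transgenes krt4:creERt2, Olactb:loxP-dsRed2-loxP-egfp and cryaa:egfp, and these cells also made 2 libraries. All fish had a Tubingen-derived wild-type background, so that the basal and periderm sorts differed in transgenic line, and the adult sort differed from both embryonic sorts in age and body site. Whether replicates came from separate clutches is not stated, so the p-values reflect only how far these particular libraries scatter, which may be technical, and the adult library has no replicate.

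Gene counts summed to 3524479 in the adult library, to 5531243 and 4912053 in the basal libraries and to 4628854 and 7514742 in the periderm libraries. Levels are given as TMM-scaled CPM, that is, counts relative to the scaled library total, and 3 counts corresponded to 1.37 CPM in the adult library and to between 0.337 and 0.565 CPM in the embryonic ones. Such floors cover counting error only. The sort gene itgb4 measured 3898 CPM in adult cells, 487 and 496 CPM in basal precursors and 9.63 and 41.4 CPM in periderm. The list of 10 basal markers that holds itgb4 separated the embryonic sorts less clearly. Its sum was 49775 CPM in adult cells, 4402 and 2195 CPM in basal precursors and 7097 and 3894 CPM in periderm. The median log2 fold change of these markers in basal precursors over periderm was 1.43. The periderm keratin krt4 measured 196 CPM in adult cells, 23901 and 18185 CPM in basal precursors and 60367 and 31016 CPM in periderm, so it was abundant in both embryonic sorts. The list of 11 periderm markers that holds krt4 did not follow it in adult cells. Its sum was 32464 CPM there, 25280 and 18748 CPM in basal precursors and 77156 and 41229 CPM in periderm. The keratin krt5 is in both this list and the basal list, so the sums of these lists are not independent. The median log2 fold change of the periderm markers in adult cells was 2.19 against basal precursors and -3.85 against periderm. In basal precursors over periderm it was -6.34. There, 9 of the 11 were lower in basal precursors at an edgeR adjusted p under 0.05 (81.8%, beside 2.52% of all genes tested). All 4 embryonic libraries also held skeletal muscle transcripts: 28 muscle markers summed to 25386 and 51202 CPM in basal precursors and to 24355 and 60608 CPM in periderm, whereas they summed to 7.31 CPM in the adult library, where 22 of the 28 were at 0.

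The respiratory chain passes electrons from NADH and succinate, through complexes I and II, to ubiquinone, then through complex III to cytochrome c and through complex IV to oxygen. Complexes I, III and IV pump protons across the inner mitochondrial membrane, and complex V, the ATP synthase, uses the returning protons to make ATP. Most subunits are encoded in the nucleus and imported, while a few catalytic ones are encoded by the mitochondrial genome. Complexes I, III, IV and V therefore each need products of both genomes, while complex II is entirely nuclear-encoded. The protein-coding genes of the mitochondrial genome were not analysed here.

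Most subunits of the chain were detected in all 3 populations. Of the 92 members, 85 passed the filter on low counts in the fit of all 5 libraries, and 82 in the fit of the 4 embryonic libraries. In the fit of all 5, enough counts in 1 library are sufficient to pass. cox8b, ndufa4 and ndufa4l2a passed it with 0 adult counts, so passing does not show detection in every population. The 7 that did not pass in the larger fit had at most 7 counts in any library and included cox6a2 and cox7a1, whose mammalian counterparts are the heart and muscle isoforms of their subunits. cox6a2 was at 0 CPM in adult cells, at 0.188 and 0 CPM in basal precursors and at 0.182 and 0 CPM in periderm, and cox7a1 was at 2.28 CPM in adult cells, at 0 and 0.512 CPM in basal precursors and at 0 and 0.337 CPM in periderm. A second copy of an iron-sulfur subunit of complex I, ndufs8b, had 0 counts in every library.

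Per kilobase of row length, the members with the highest levels were small subunits of complexes IV and V. In adult cells the leading member was atp5g3b, a gene for subunit c of the rotor ring of ATP synthase, at 756 CPM per kb, followed by cox7c at 635 and atp5e at 493 CPM per kb. In basal precursors cox7c, a small subunit of complex IV, led with 722 and 904 CPM per kb, ahead of atp5g3b with 639 and 832 CPM per kb. In periderm cox7c led as well, with 856 and 921 CPM per kb. The next place there went to atp5g3b in replicate 1 (678 CPM per kb) and to cox6a1, another subunit of complex IV, in replicate 2 (910 CPM per kb).

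Summed over all 92 members, the chain measured 7958 CPM in adult cells, 11451 and 13460 CPM in basal precursors and 12970 and 14111 CPM in periderm. The adult library thus lay below every embryonic library, at 0.639 of the basal mean and 0.588 of the periderm mean, while the ranges of basal precursors and periderm overlapped. As a share of unscaled gene counts the members made up 0.494% in adult cells, 1.1% and 1.60% in basal precursors and 1.54% and 1.67% in periderm. The ratios depend on the scaling: they were 0.736 and 0.644 with RLE factors, and 0.366 and 0.308 with total counts. The TMM factor was 0.621 for the adult library and 0.960 to 1.19 for the others, and the 10 genes with the most counts made up 23.8% of the adult library, against 13.4% to 17.7% in the embryonic libraries. In bulk libraries fewer cells of a type and less RNA per cell cannot be told apart.

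The complexes differed in how far below the embryonic level the adult library lay. Complex III summed to 468 CPM in adult cells, against 1103 and 1271 CPM in basal precursors and 1251 and 1440 CPM in periderm, which put adult cells at 0.394 of basal precursors and 0.348 of periderm. For complex IV the sums were 2053 CPM in adult cells, 2252 and 2900 CPM in basal precursors and 2423 and 2830 CPM in periderm, with adult ratios of 0.797 and 0.782. The complex IV ratios were 0.918 and 0.857 with RLE factors, under which the adult sum of 2254 CPM lay above that of basal replicate 1 (2106 CPM), and 0.454 and 0.409 with total counts. Complex I, at 1780 CPM in adult cells, had ratios of 0.551 to basal precursors and 0.511 to periderm. Complexes II (0.770 and 0.687) and V (0.661 and 0.594) lay between. Within the member total, complex III took 5.88% in adult cells, against 9.64% and 9.45% in basal precursors and 9.64% and 10.21% in periderm. Complex IV took 25.8% in adult cells, against 19.7% and 21.5% in basal precursors and 18.7% and 20.1% in periderm. These shares within a library do not depend on the scaling factor, and for both complexes the adult value fell outside the embryonic range. This was not particular to complexes III and IV. The adult share also lay below the embryonic range for complex I and above it for complexes II and V.

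**Figure D1:**
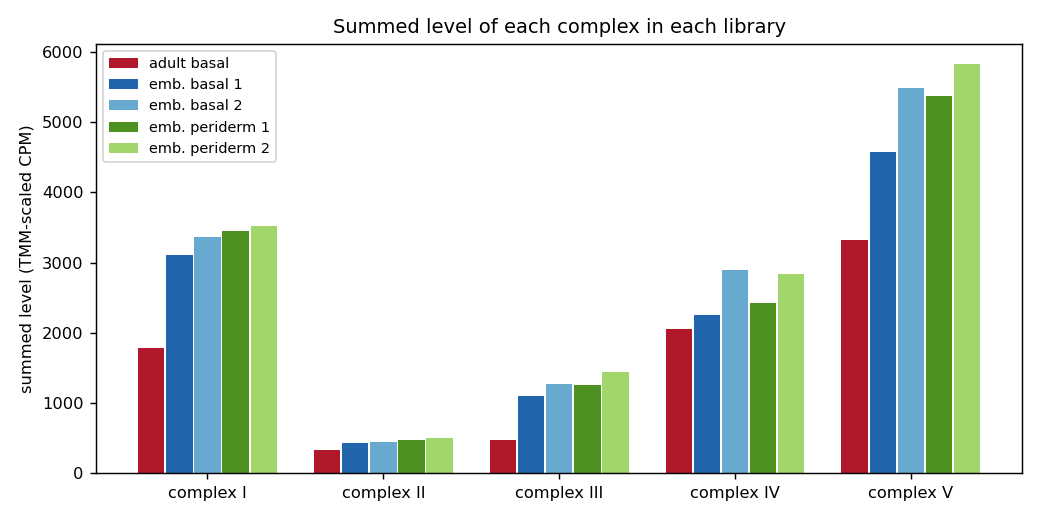
Summed level (TMM-scaled CPM, linear axis from 0) of the members of each complex in each of the 5 libraries, one bar per library. With this scaling the adult bar is the lowest in every complex; for complex III it stands at 468 CPM against 1103 to 1440 CPM in the embryonic libraries, and for complex IV at 2053 CPM against 2252 to 2900 CPM.

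The first test compared adult basal cells with embryonic basal precursors, which addresses how far precursors at 1 dpf already resemble adult basal cells. Adult cells had lower levels of 7 subunits, and no subunit was called higher. Over all genes, 11.5% were called lower and 11.6% higher (23.1% in either direction), so the 8.24% of tested members called lower is no larger than the background. The median log2 fold change of the 85 tested members was -0.73, beside -0.60 over all genes tested, and 15 members had a positive and 70 a negative fold change. Set against the median of all genes, 35 members lay above it and 50 below. Calls used edgeR's quasi-likelihood test with Benjamini-Hochberg adjustment over all 18171 genes tested, at an adjusted p under 0.05, and the adult library was assumed to vary like the embryonic ones. At an unadjusted p under 0.05 there were 0 members higher and 18 lower, for which no share of all genes is given here. DESeq2 called 0 members higher and 9 lower, beside 2220 higher and 2337 lower of all 18171 genes tested. With total counts 0 members were called higher and 29 lower, beside 1506 higher and 3896 lower of all 18171 genes tested. Fewer members were called without periderm replicate 1, where their median was -0.72, beside -0.56 over all genes.

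Adult cells against embryonic periderm, a comparison that shares the adult library with the first, gave 12 members lower and none higher. That is 14.1% of 85 tested, beside 14.4% of all genes called lower and 14.3% called higher (28.7% in either direction). The median of the members was -0.88, beside -0.73 over all genes. At an unadjusted p under 0.05 there were 0 members higher and 24 lower, again without a share of all genes. DESeq2 called 0 members higher and 13 lower, beside 2468 higher and 3050 lower of all 18171 genes tested. With total counts 0 members were called higher and 47 lower, beside 1793 higher and 5136 lower of all 18171 genes tested. Fewer members were called without periderm replicate 1 and without periderm replicate 2. Their medians there were -0.92 and -0.79, beside -0.62 over all genes in each. Because the median of all genes itself moved with the scaling (-0.60 with TMM, -0.39 with RLE and -1.38 with total counts against basal precursors; -0.73, -0.60 and -1.66 against periderm), complexes are also given relative to it.

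**Figure D2:**
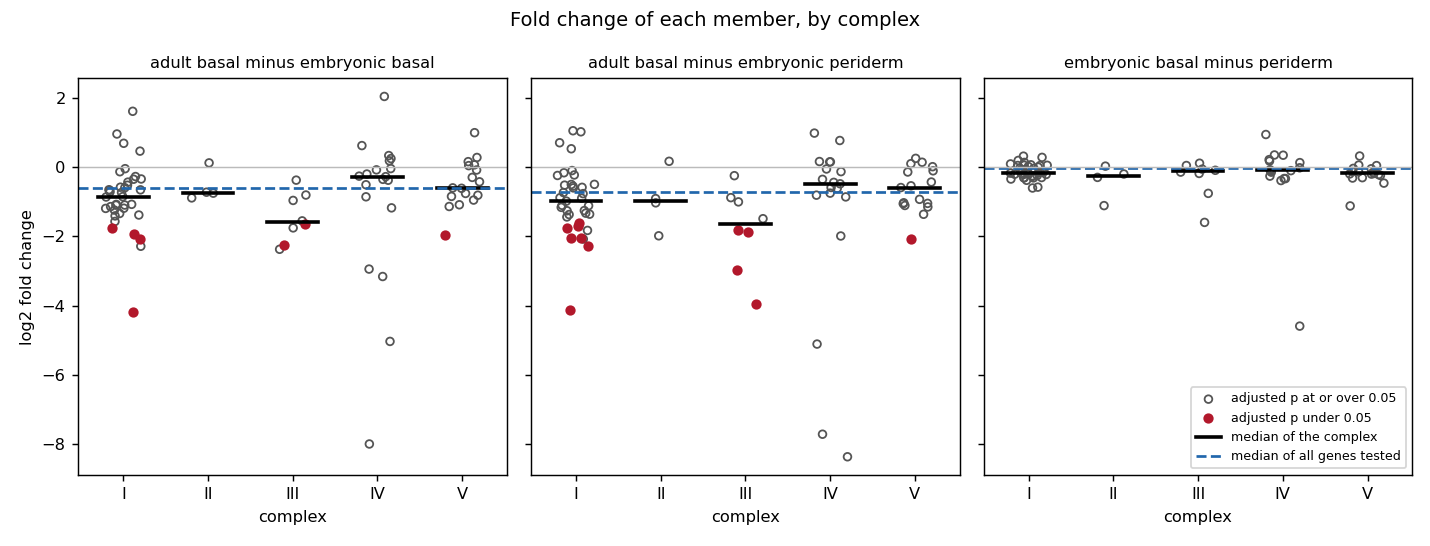
Log2 fold change of each tested member, by complex, for adult basal cells minus embryonic basal precursors, adult basal cells minus embryonic periderm, and embryonic basal precursors minus periderm; filled points had an adjusted p under 0.05, the black bar is the median of the complex and the dashed line the median of all genes tested. All 8 complex III members lie below 0 in both adult panels, and 7 of them lie below the dashed line. The complex IV median lies above the dashed line in both adult panels, and no point is filled in the embryonic panel.

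Complex I carried 4 of the 7 members lower in adult cells than in basal precursors and 7 of the 12 lower than in periderm. These are 10.8% and 18.9% of its 37 tested members, beside 11.5% and 14.4% of all genes called lower. The change furthest from 0 was in ndufb5, an accessory subunit of the membrane arm, which measured 2.74 CPM in adult cells (6 counts), against 43.1 and 56.4 CPM in basal precursors and 56.7 and 39.0 CPM in periderm. Its log2 fold change was -4.17 against basal precursors (SE 0.74, adjusted p = 0.00736) and -4.11 against periderm (SE 0.73, adjusted p = 0.00638). ndufa10, another accessory subunit, measured 37.9 CPM in adult cells, 153 and 169 CPM in basal precursors and 197 and 173 CPM in periderm. It was 4.24-fold lower than in basal precursors (a log2 fold change of -2.08, SE 0.50, adjusted p = 0.0218) and 4.87-fold lower than in periderm (log2 fold change -2.28, SE 0.50, adjusted p = 0.0134). For both genes the adult value lay far below all 4 embryonic values, and both calls held in all 12 alternative settings of both adult comparisons.

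ndufab1a encodes one copy of the mitochondrial acyl carrier protein, which is also a complex I subunit. It measured 30.2 CPM in adult cells, 126 and 103 CPM in basal precursors and 98.8 and 150 CPM in periderm, and fell by 1.93 and 2.05 on the log2 scale against basal precursors and periderm (SE 0.54 each, adjusted p = 0.0371 and 0.0257). The calls were lost on leaving out basal replicate 1 (adjusted p = 0.0806) and on leaving out periderm replicate 2 (adjusted p = 0.0670), each in the comparison with that population. ndufb3, a membrane arm subunit, measured 28.8 CPM in adult cells, 87.4 and 109 CPM in basal precursors and 106 and 133 CPM in periderm (log2 fold changes -1.77 and -2.05, adjusted p = 0.0408 and 0.0218). Against basal precursors its call did not hold without basal replicate 1, basal replicate 2 or periderm replicate 1 (adjusted p = 0.0563, 0.0909 and 0.0503), with RLE factors (adjusted p = 0.0587) or with all rows summed (adjusted p = 0.0524), and against periderm it did not hold without periderm replicate 2 (adjusted p = 0.0544). Adult and embryonic values did not overlap for either gene.

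A further 3 complex I members passed only the comparison with periderm. For ndufv2 and ndufb6, which are among them, whether the 2 embryonic populations differ is the embryonic test, which neither passed (edgeR adjusted p = 0.823 and 0.767). The iron-sulfur subunit ndufv2 of the NADH-oxidizing module measured 32.4 CPM in adult cells, 71.2 and 98.2 CPM in basal precursors and 96.1 and 102 CPM in periderm (adult against periderm: log2 fold change -1.61, SE 0.51, adjusted p = 0.0465). The membrane arm subunit ndufb6 measured 37.5 CPM in adult cells, 86.2 and 113 CPM in basal precursors and 100.1 and 144 CPM in periderm (log2 fold change -1.70, SE 0.53, adjusted p = 0.0439). The adult library was again the lowest of the 5 for both genes. Both calls were lost on leaving out periderm replicate 1 (adjusted p = 0.0831 and 0.0559 for ndufv2 and ndufb6) and on leaving out periderm replicate 2 (adjusted p = 0.0898 and 0.107). In all, the ndufv2 call was lost in 7 of 12 alternative settings, including the one without basal replicate 1 (adjusted p = 0.0514), and the ndufb6 call in 5 of 12.

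The rest of complex I ranged more widely, and the median of the whole complex relative to all genes was -0.26 in both adult comparisons (against periderm, -0.03 with no filter beyond 1 count). The catalytic NADH-oxidizing subunit ndufv1 measured 109 CPM in adult cells, 150.1 and 163 CPM in basal precursors and 138 and 117 CPM in periderm, differences that did not pass (adjusted p = 0.421 and 0.706). ndufb8, a membrane arm subunit, measured 149 CPM in adult cells, 201 and 179 CPM in basal precursors and 253 and 170.1 CPM in periderm (edgeR adjusted p = 0.621 and 0.439). Positive fold changes were seen for ndufa1, ndufa8, ndufa9b and ndufa12 in both comparisons, none of them called; ndufa1 measured 62.1 CPM in adult cells, 28.6 and 48.7 CPM in basal precursors and 41.2 and 35.3 CPM in periderm (edgeR adjusted p = 0.355 and 0.315).

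Complex II had no called member. The flavoprotein sdha, which oxidizes succinate, measured 165 CPM in adult cells, 164 and 141 CPM in basal precursors and 131 and 164 CPM in periderm (log2 fold changes 0.12 and 0.16, adjusted p = 0.864 and 0.790). The iron-sulfur subunit sdhb measured 96.4 CPM in adult cells, 156 and 164 CPM in basal precursors and 207 and 156 CPM in periderm (log2 fold changes -0.73 and -0.91, adjusted p = 0.289 and 0.176). The adult value of sdha lay just above the embryonic range and that of sdhb below it. Of the membrane anchors, sdhdb followed sdhb with 64.4 CPM in adult cells, 91.3 and 126 CPM in basal precursors and 115 and 148 CPM in periderm (edgeR adjusted p = 0.292 and 0.149), and sdhc was low, with 5.48 CPM in adult cells, 9.60 and 10.8 CPM in basal precursors and 19.4 and 24.0 CPM in periderm (edgeR adjusted p = 0.376 and 0.0628).

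In complex III, which passes electrons from ubiquinol to cytochrome c, all 8 members had negative fold changes in both adult comparisons. In each comparison 7 of them lay below the median of all genes tested and 1 above it. The subunit cytochrome c1 is not in the sums and medians of the complex, since the rule for members does not match its symbol, cyc1. The median of the 8 members was -1.60 against basal precursors and -1.65 against periderm, or -1.0 and -0.92 relative to all genes tested. With RLE factors and with total counts the relative medians were -1.0 and -1.02 against basal precursors and -0.92 and -0.93 against periderm. The adult value lay below both libraries of the other population for 8 of 8 members in each comparison, which also holds for 50.4% and 53.6% of all genes tested. Of the 8, 2 were called lower against basal precursors and 4 against periderm, where 11.5% and 14.4% of all genes were.

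uqcrc1 encodes a core protein of complex III. It measured 33.4 CPM in adult cells, 164 and 151 CPM in basal precursors and 266 and 260 CPM in periderm, and was 4.72-fold lower than in basal precursors (a log2 fold change of -2.24, SE 0.50, adjusted p = 0.0174) and 7.89-fold lower than in periderm (log2 fold change -2.98, SE 0.52, adjusted p = 0.00579). The adult value stood apart from the other 4, and both calls held in all 12 alternative settings. uqcrc1 has rows in 2 separate places of the table, and with both summed the log2 fold changes were -2.09 and -2.30 (adjusted p = 0.0222 and 0.0138).

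uqcrc2a, one copy of the other core protein, measured 28.8 CPM in adult cells, 95.7 and 84.2 CPM in basal precursors and 89.7 and 112 CPM in periderm. It fell by 1.64 against basal precursors (SE 0.50, adjusted p = 0.0484) and by 1.81 against periderm (SE 0.50, adjusted p = 0.0307). Against basal precursors the call was lost in 8 of 12 alternative settings, among them those without basal replicate 1, basal replicate 2, periderm replicate 1 and periderm replicate 2 (adjusted p = 0.104, 0.0674, 0.0567 and 0.0562). Against periderm it was lost on leaving out periderm replicate 1 and replicate 2 (adjusted p = 0.0502 and 0.0714). The second copy, uqcrc2b, measured 94.6 CPM in adult cells, 185 and 184 CPM in basal precursors and 187 and 193 CPM in periderm, and was not called (adjusted p = 0.160 and 0.131).

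The Rieske iron-sulfur protein uqcrfs1, which takes electrons from ubiquinol, measured 92.7 CPM in adult cells, 270 and 357 CPM in basal precursors and 262 and 421 CPM in periderm. It was called lower against periderm (log2 fold change -1.88, SE 0.55, adjusted p = 0.0374) and missed the threshold against basal precursors (a log2 fold change of -1.76, SE 0.55, adjusted p = 0.0533). When periderm replicate 1 or replicate 2 was left out, the call against periderm was lost (adjusted p = 0.0537 and 0.112). uqcrq, a small subunit, had only 5 counts in adult cells (2.28 CPM), with 19.0 and 4.95 CPM in basal precursors and 42.7 and 28.8 CPM in periderm. It was called lower against periderm (log2 fold change -3.95, SE 1.12, adjusted p = 0.0323; without periderm replicate 1, adjusted p = 0.0726; with all rows summed, adjusted p = 0.0622), and against basal precursors only without basal replicate 2 (adjusted p = 0.0363, beside 0.166 with it). uqcrq also has 2 places in the table, the one used here held 55.6% of its adult reads, and with both summed the log2 fold changes were -1.69 and -3.13 (adjusted p = 0.230 and 0.0424). The hinge protein uqcrh measured 76.8 CPM in adult cells, 198 and 253 CPM in basal precursors and 209 and 223 CPM in periderm, and missed the threshold in both comparisons (adjusted p = 0.0530 and 0.0519). The smallest difference in complex III was in uqcrb, at 89.1 CPM in adult cells, 102 and 130 CPM in basal precursors and 104 and 108 CPM in periderm.

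**Figure D3:**
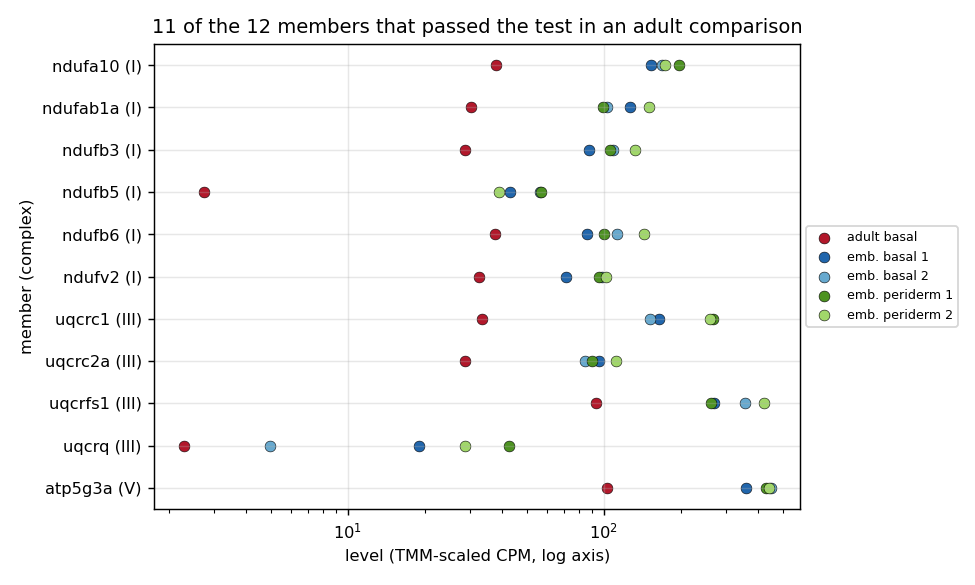
Level (TMM-scaled CPM, log axis) of 11 of the 12 members that passed the test in an adult comparison, one point per library. The adult point is the leftmost for each gene; ndufb5, at 2.74 CPM, and uqcrq, at 2.28 CPM, rest on 6 and 5 adult counts, and uqcrq is the gene in which basal replicate 2 (4.95 CPM) comes closest to the adult value.

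Complex IV had no called member in either adult comparison, and its median lay above that of all genes tested, by 0.32 against basal precursors and by 0.24 against periderm. These relative values were 0.32 and 0.24 with RLE factors and 0.29 and 0.24 with total counts, 0.42 against periderm with no filter beyond 1 count, and were 0.05 against basal precursors without basal replicate 1 and 0.03 against periderm without periderm replicate 1. cox6a1 measured 267 CPM in adult cells, 316 and 447 CPM in basal precursors and 376 and 525 CPM in periderm (log2 fold changes -0.51 and -0.75, adjusted p = 0.489 and 0.289). cox6b2, the leading copy of the subunit that faces the intermembrane space, measured 388 CPM in adult cells, 376 and 425 CPM in basal precursors and 335 and 365 CPM in periderm (log2 fold changes -0.05 and 0.15, adjusted p = 0.956 and 0.815). The adult value of cox6b2 lay within the basal range, and that of cox6a1 lay below all 4 embryonic libraries.

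Other complex IV subunits with adult values among or near the embryonic ones were cox4i1, cox6c and ndufa4l. cox4i1 encodes the isoform of subunit 4 that most tissues use, and it measured 170 CPM in adult cells, 109 and 190.1 CPM in basal precursors and 134.6 and 237 CPM in periderm. cox6c measured 91.8 CPM in adult cells, 66.9 and 88.3 CPM in basal precursors and 77.9 and 86.6 CPM in periderm, and ndufa4l measured 172 CPM in adult cells, 184 and 211 CPM in basal precursors and 174 and 183 CPM in periderm. None of them passed (adjusted p from 0.718 to 0.929 over both comparisons). Others were lower in adult cells but not called. cox7a2a measured 112 CPM there, 233 and 276 CPM in basal precursors and 192 and 203 CPM in periderm (edgeR adjusted p = 0.105 and 0.212). cox7a3 measured 4.57 CPM, against 17.5 and 53.0 CPM and 25.6 and 11.1 CPM (edgeR adjusted p = 0.0727 and 0.173). Of 19 tested members of complex IV, 14 had a negative fold change in each comparison, while 6 and 7 lay below the median of all genes. ndufa4, the other copy of the ndufa4l subunit, had 0 counts in adult cells, 1.69 and 9.57 CPM in basal precursors and 9.26 and 5.62 CPM in periderm, which put adult cells at least 4.11-fold and 5.43-fold lower against the floor of 3 counts (1.24-fold below basal precursors without basal replicate 2), a difference that was not called (adjusted p = 0.138 and 0.0965).

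In complex V the single called member was atp5g3a. It measured 103 CPM in adult cells, 361 and 448 CPM in basal precursors and 431 and 440.1 CPM in periderm, and was 3.93-fold lower than in basal precursors (a log2 fold change of -1.97, SE 0.51, adjusted p = 0.0281) and 4.24-fold lower than in periderm (log2 fold change -2.08, SE 0.51, adjusted p = 0.0199). Both calls were narrowly lost on leaving out periderm replicate 1 (adjusted p = 0.0530 and 0.0604) and on leaving out periderm replicate 2 (adjusted p = 0.0517 and 0.0582). The catalytic beta subunit atp5b measured 785 CPM in adult cells, 1018 and 1093 CPM in basal precursors and 1176 and 1190 CPM in periderm (edgeR adjusted p = 0.566 and 0.394). The gamma subunit of the central stalk, atp5c1, measured 247 CPM in adult cells, 499 and 590 CPM in basal precursors and 675 and 596 CPM in periderm (edgeR adjusted p = 0.134 and 0.0758). The epsilon subunit atp5e measured 194 CPM in adult cells, 130 and 191 CPM in basal precursors and 163 and 199.7 CPM in periderm (edgeR adjusted p = 0.692 and 0.887).

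atp5g3a is 1 of 3 genes for subunit c, and neither of the other two was called. atp5g3b measured 631 CPM in adult cells, 534 and 694 CPM in basal precursors and 566 and 687 CPM in periderm (log2 fold changes 0.04 and 0.01, adjusted p = 0.966 and 0.991). atp5g1 measured 158 CPM in adult cells, 227 and 309 CPM in basal precursors and 266 and 387 CPM in periderm (edgeR adjusted p = 0.304 and 0.157). Per row length, atp5g3b thus made up 69.5% of subunit c transcripts in adult cells, against 47.9% and 48.0% in basal precursors and 45.1% and 45.0% in periderm. The share of atp5g3a was 9.67% in adult cells, against 27.7% and 26.4% in basal precursors and 29.4% and 24.6% in periderm. Both embryonic populations were alike to within a few points, and the adult library stood outside their range. With all rows of a symbol summed, the atp5g3b shares were 82.0% in adult cells, 64.8% in basal precursors and 62.1% in periderm. That sum inflates atp5g3b, whose 2 rows stand in 1 place and hold nearly the same counts (1381 and 1380 in adult cells). atp5g1 and atp5g3a have 1 row each. With 1 row per place summed, the mean atp5g3b shares were 69.5%, 47.9% and 45.1%.

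Of the other sets of duplicated genes, 1 met the same criterion of a shift of over 20 percentage points between populations. ndufa9b made up 39.7% of the ndufa9 pair in adult cells, against 15.7% and 11.4% in basal precursors and 15.9% and 8.65% in periderm. It was low, at 16.4 CPM in adult cells, 10.5 and 6.49 CPM in basal precursors and 11.99 and 4.61 CPM in periderm, and the counts were 36 in adult cells and 38 to 66 in the embryonic libraries. The ndufa9b row is annotated as an exon of 749 bases and not as an mRNA, whereas the ndufa9a row is an mRNA of 1299 bases. The shares of this pair may therefore not compare whole transcripts. The same copy led every set in all 5 libraries. In complex IV these leading copies were cox4i1, cox5aa, cox6a1, cox6b2, cox7a2a, cox8a and ndufa4l, and in complexes II and III they were sdhdb and uqcrc2b.

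**Figure D4:**
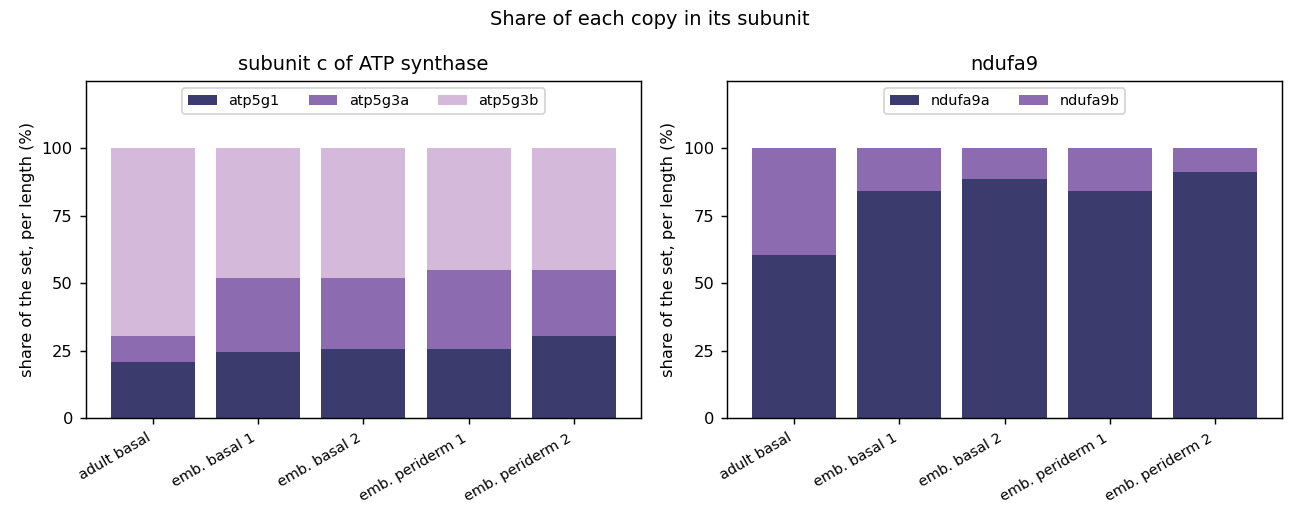
Share of each copy among the transcripts of its subunit, per row length (percent, stacked to 100), in each library, for subunit c of ATP synthase and for ndufa9. atp5g3b takes 69.5% in the adult library and 45.0% to 48.0% in the embryonic ones, and ndufa9b takes 39.7% in the adult library and 8.65% to 15.9% in the embryonic ones. The ndufa9b row is annotated as an exon and not as an mRNA.

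Embryonic basal precursors and embryonic periderm were then set against each other, which asks whether the epidermal layers already differ at 1 dpf. No member of the chain was called in either direction among 82 tested, while 3.45% of all 15613 genes tested were called, 0.935% higher and 2.52% lower in basal precursors. The median log2 fold change of the members was -0.15 (quartiles -0.27 and 0.04), beside -0.02 over all genes. Relative to all genes the member median was -0.13, and it was 0.03 without basal replicate 1. Medians by complex ran from -0.25 in complex II to -0.09 in complex IV, and leaving out 1 library changed their signs and their order. Complex IV was at 0.11 without basal replicate 1, at -0.31 without basal replicate 2 and at 0.01 without periderm replicate 2, and complex III was at 0.01 without basal replicate 1. At an unadjusted p under 0.05, 4 members were lower and 0 higher. No share of all genes at this threshold is given here, so the count is not read as a difference of the chain. Basal and periderm libraries did not overlap for 5 members higher and 18 lower in basal precursors, whereas 22.8% and 24.1% of all genes tested had no overlap in the same directions. A p that misses the threshold with 2 libraries against 2 does not show that the populations are alike.

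The 4 members with an unadjusted p under 0.05 were ndufa4l2a, sdhc, uqcrc1 and uqcrq. ndufa4l2a, whose mammalian counterpart NDUFA4L2 is known as a hypoxia-induced relative of NDUFA4, measured 0 and 0.342 CPM in basal precursors and 5.27 and 4.16 CPM in periderm, with 0 counts in adult cells (log2 fold change -4.59, SE 1.13, adjusted p = 0.0613). It was the 1 member called by DESeq2 (adjusted p = 0.0247) and with total counts (adjusted p = 0.0469). sdhc averaged 10.18 ± 0.819 CPM in basal precursors, against 21.7 ± 3.19 CPM in periderm (n = 2 each, SD; edgeR log2 fold change -1.11, SE 0.45, adjusted p = 0.234). uqcrc1 averaged 158 ± 9.46 CPM in basal precursors, against 263 ± 4.6 CPM in periderm (n = 2 each, SD; edgeR log2 fold change -0.76, SE 0.32, adjusted p = 0.256), and with both of its places summed the log2 fold change was -0.23. uqcrq averaged 11.99 ± 9.95 CPM in basal precursors, against 35.7 ± 9.83 CPM in periderm (n = 2 each, SD; edgeR log2 fold change -1.60, SE 0.63, adjusted p = 0.229).

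In complexes II to V the member with the highest mean CPM, not divided by row length, was not called in the embryonic test. uqcrfs1 averaged 313 ± 61.4 CPM in basal precursors, against 341 ± 112 CPM in periderm (n = 2 each, SD). For sdhb, cox6a1 and atp5b the log2 fold changes of basal precursors over periderm were -0.20, -0.26 and -0.19 (edgeR adjusted p = 0.855, 0.823 and 0.882). Summed levels were 3232 ± 186 CPM in basal precursors, against 3483 ± 56.8 CPM in periderm for complex I, and 5029 ± 642 CPM in basal precursors, against 5602 ± 315 CPM in periderm for complex V (n = 2 each, SD). Scaling and testing without the rows of the muscle, ionocyte and blood markers again left 0 members called. Dropping these rows does not remove reads of such cells from the member counts, so it cannot show their part in the member levels.

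Replicates of basal precursors differed more for members whose rows stand in more than 1 place of the table. Of members over 10 CPM, 65 had rows in 1 place and 13 in several. The median absolute log2 ratio of basal replicate 1 to replicate 2 was 0.31 in the first set and 0.77 in the second, and it exceeded 1 for 1 of 65 members (cox6b1) and for 6 of 13. The 6 were cox7a3, ndufa12, ndufb4, ndufb9, ndufs4 and uqcrq. For all of these but uqcrq the place used here held at least 97.9% of the reads in every library. ndufb9, a membrane arm subunit of complex I, is the clearest case, with 37.0 CPM in adult cells, 106 and 11.3 CPM in basal precursors and 72.3 and 74.1 CPM in periderm. Between the periderm replicates the median absolute log2 ratio was 0.24 for members with 1 place and 0.57 for those with several. There it exceeded 1 for 1 of 65 and 2 of 13 members, and the log2 ratio of ndufb9 was -0.04. Members with several places also had lower levels, with a median of 44.7 CPM per kb, against 172 CPM per kb for those with 1 place, and the part of depth in the wider ratios was not tested.

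The division of reads between places also differed among libraries. For uqcrc1 the place used here took 52.5% of the reads in adult cells, 56.5% and 59.9% in basal precursors and 81.8% and 85.7% in periderm. For ndufa8, a complex I subunit, it took 95.1% in adult cells, 52.2% and 42.1% in basal precursors and 61.0% and 31.6% in periderm. How reads with several alignments were counted is not given in the sources used here, so levels of these members carry that uncertainty. ndufb5 has 2 places as well, and the one used here took at least 99.7% of its reads in every library.

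**Figure D5:**
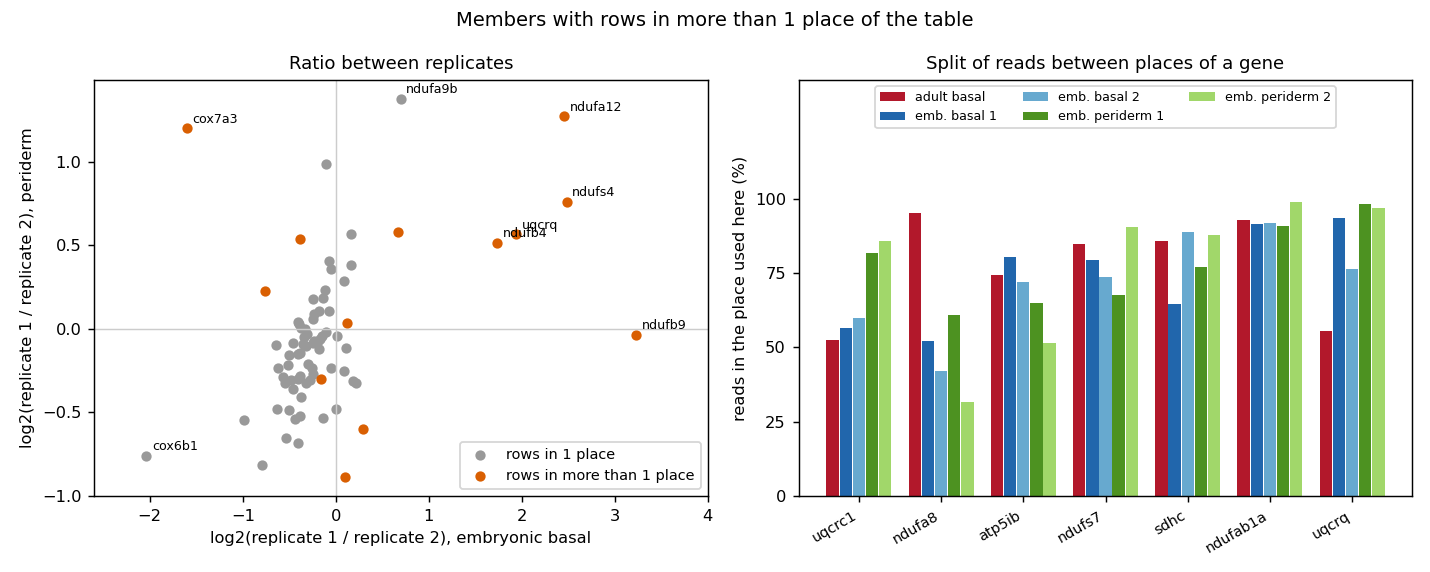
Left, log2 ratio of replicate 1 to replicate 2 in embryonic basal precursors (x) and periderm (y) for members over 10 CPM, coloured by whether their rows stand in 1 place or more of the table; names mark members with a ratio beyond 1 or -1 on either axis. Right, percent of a member's reads in the place used here, per library; ndufb9 reaches 3.23 on the x axis, and the uqcrc1 bar is at 52.5% in the adult library and at 85.7% in periderm replicate 2.

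Genes that serve the chain without being members were described by the same tests, from lists of the pathway. They include cyc1, a subunit of complex III that the rule for members does not match. Of the cytochromes c, cycsb, the mobile carrier between complexes III and IV, was higher in adult cells, at 1407 CPM, against 389 and 470 CPM in basal precursors and 353 and 439 CPM in periderm (log2 fold changes 1.71 and 1.83, SE 0.47 each, adjusted p = 0.0338 and 0.0226). With total counts neither cycsb call held (adjusted p = 0.185 and 0.166), nor did they without periderm replicate 1 (0.0749 and 0.132 as adjusted p) or replicate 2 (0.0698 and 0.0831), and the call against basal precursors was also lost on leaving out basal replicate 1 (adjusted p = 0.108). Cytochrome c1, cyc1, the subunit of complex III that hands it electrons, measured 153 CPM in adult cells, 313 and 373 CPM in basal precursors and 369 and 386 CPM in periderm (edgeR adjusted p = 0.113 and 0.0754). The ADP/ATP carrier slc25a5 measured 9726 CPM in adult cells, 4984 and 4874 CPM in basal precursors and 5348 and 5330 CPM in periderm and was not called (adjusted p = 0.301 and 0.330), while the far less abundant slc25a4 was at 0 in adult cells and called lower against both populations, by at least 6.91-fold and 5.93-fold (against basal precursors, adjusted p = 0.0719 without basal replicate 2).

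Among 48 tested assembly factors, 1 was higher and 3 were lower in adult cells than in basal precursors, and 1 was higher and 4 were lower than in periderm. The shares called lower were 6.25% and 8.33%, beside 11.5% and 14.4% of all genes, and the share called higher was 2.08% in each, beside 11.6% and 14.3%. With total counts 7 and 13 were lower, beside 3896 and 5136 of all 18171 genes tested. Those at 0 in adult cells were bcs1l, which inserts the Rieske protein into complex III, tmem70, needed for ATP synthase assembly, and foxred1, a complex I assembly factor. Against basal precursors they were at least 9.10-fold, 9.32-fold and 7.22-fold lower (5.50-fold for bcs1l and 6.18-fold for tmem70 without basal replicate 2), and ndufaf2, another complex I factor with 2 adult counts, was the added call against periderm. The foxred1 calls were lost on leaving out basal replicate 1 (adjusted p = 0.0564 and 0.0611) and with all rows summed (adjusted p = 0.0561 and 0.0674), and the one against basal precursors also on leaving out basal replicate 2 (adjusted p = 0.0568). The one that was higher, higd1a, a small inner membrane protein that binds complex IV and is induced by hypoxia in mammals, measured 1731 CPM in adult cells, 155 and 78.8 CPM in basal precursors and 62.8 and 77.0 CPM in periderm (log2 fold changes 3.89 and 4.63, adjusted p = 0.00323 and 0.00163).

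Of the mitochondrial ribosomal proteins, which translate the mitochondrial genome, 18 of 74 tested were lower in adult cells than in basal precursors (24.3%, beside 11.5% of all genes) and 24 of 74 lower than in periderm (32.4%, beside 14.4%), with 0 higher. Their medians were -1.48 and -1.56, or -0.89 and -0.84 relative to all genes tested. With all rows summed 12 were lower than in basal precursors, beside 2002 of all 19357 genes tested. With total counts 46 and 51 were lower, beside 3896 and 5136 of all 18171 genes tested. Fewer were called against basal precursors without basal replicate 2, where the median was -1.26, or -0.85 relative to all genes. mrps34 measured 4.57 CPM in adult cells, 55.7 and 61.0 CPM in basal precursors and 56.7 and 63.9 CPM in periderm, and mrpl39 measured 1.83 CPM in adult cells, 35.0 and 41.5 CPM in basal precursors and 30.7 and 36.9 CPM in periderm. The adult value of mrpl39 lay near the 1.37 CPM to which 3 counts corresponded in that library. tfam, which packages and transcribes mitochondrial DNA, was the 1 of 11 regulators of mitochondrial biogenesis that was called, at 10.1 CPM in adult cells, 67.8 and 58.3 CPM in basal precursors and 72.7 and 43.5 CPM in periderm (log2 fold changes -2.65 and -2.53, adjusted p = 0.0209 and 0.0198). The share of these regulators called lower was 9.09% in each comparison, beside 11.5% and 14.4% of all genes. With total counts 4 of these regulators were lower in each comparison, beside 3896 and 5136 of all 18171 genes tested. Leaving out 1 embryonic library at a time gave regulator medians from -2.18 to -1.54 against basal precursors and from -1.72 to -0.93 against periderm. The number called changed among these fits, and some had a call higher than in periderm. The large ribosomal RNA of the mitochondrion, mt-rnr2, measured 63509 CPM in adult cells, 10100 and 20794 CPM in basal precursors and 11764 and 51732 CPM in periderm and was not called (adjusted p = 0.219 and 0.508; by DESeq2 against basal precursors, 0.0358), the periderm replicates differing by more than the adult library did from the higher of them. The other, mt-rnr1, made up 0.115% of gene counts in adult cells. Its shares were 0.0207% and 0.0407% in basal precursors and 0.0273% and 0.177% in periderm. Of these 2 RNAs, 0 were called against basal precursors in the main fit, 1 was higher in adult cells with RLE factors and 2 with DESeq2.

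Among 18 tested citrate cycle genes, 1 was lower in adult cells than in basal precursors, and 2 were lower and 1 higher than in periderm. These are 5.56% lower against basal precursors, beside 11.5% of all genes, and 11.1% lower and 5.56% higher against periderm, beside 14.4% and 14.3%. suclg1, a subunit of succinyl-CoA ligase, was lower in both comparisons, at 48.4 CPM in adult cells, 206 and 265 CPM in basal precursors and 201 and 262 CPM in periderm (log2 fold changes -2.28 and -2.26, adjusted p = 0.0197 and 0.0166). Against periderm the others were ogdhb, a copy of the oxoglutarate dehydrogenase gene that was lower with 2 adult counts (adjusted p = 0.0412), and idh3b, a subunit of the NAD-dependent isocitrate dehydrogenase that was higher (adjusted p = 0.0367). The idh3b call was lost in 6 of 12 alternative settings, namely total counts, no filter beyond 1 count, all rows summed, places summed and leaving out periderm replicate 1 or replicate 2 (adjusted p from 0.0588 to 0.152), and the ogdhb call was lost without periderm replicate 2 (adjusted p = 0.0776). With total counts 7 genes of the list were lower against basal precursors and 12 against periderm, beside 3896 and 5136 of all 18171 genes tested. dldh, the dihydrolipoamide dehydrogenase shared by several complexes of the cycle, measured 113 CPM in adult cells, 123 and 157 CPM in basal precursors and 143 and 151 CPM in periderm (edgeR adjusted p = 0.646 and 0.533). Of 23 import genes, 5 were lower in adult cells in each comparison and 1, tomm34, was higher. That is 21.7% lower, beside 11.5% of all genes against basal precursors and 14.4% against periderm, and 4.35% higher, beside 11.6% and 14.3%. With total counts 12 and 15 import genes were lower, beside 3896 and 5136 of all 18171 genes tested. In the embryonic comparison edgeR called 0 genes of these pathway lists. At an unadjusted p under 0.05, 3 were higher and 2 lower, without a share of all genes to set beside them. Of the alternatives there, DESeq2 called 1 mitochondrial ribosomal gene higher, and leaving out basal replicate 2 gave 1 import gene higher.

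Other cell types moved with the adult comparison as well. The muscle markers were lower in adult cells by the test for 28 of 28 in both comparisons, and muscle is rich in mitochondria. Leukocyte markers summed to 3206 CPM in adult cells, 2.64 and 10.4 CPM in basal precursors and 138 and 212 CPM in periderm, with cd74a alone at 3142 CPM in adult cells. Ionocyte markers, for the mitochondrion-rich cells of the skin, summed to 1071 CPM in adult cells, 962 and 635 CPM in basal precursors and 841 and 1728 CPM in periderm, with rhcgb and slc12a10.2 at 0 in every library. The median log2 fold change of the 15 tested was -2.57 against basal precursors and -4.37 against periderm. Against basal precursors 1 was called higher and 0 lower (6.67% higher, beside 11.6% of all genes). Against periderm 0 were called higher and 5 lower (33.3% lower, beside 14.4% of all genes). Mesenchyme markers summed to 2772 CPM in adult cells, 7542 and 6213 CPM in basal precursors and 1597 and 2511 CPM in periderm. The part of these cells in the member levels was not tested. Between the 2 basal libraries the muscle sum differed by 25386 against 51202 CPM and the member sum by 11451 against 13460 CPM.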

How the data were processed

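RNA was sequenced from 5 libraries of sorted zebrafish cells. The authors deposited raw counts, one whole number per transcript row and library. Named in the submitters' processing notes are the build GRCz11, featureCounts 2.0.3 and HISAT2 2.2.1. Neither strand use nor the counting of multiply aligned reads is given in the sources used here, so overlapping genes and near-identical copies cannot be told apart. The table had 75805 rows; its other 10 columns of per-sample values (RPKM and TPM) were not used. Row lengths were taken as the deposited values, and CPM per kb divides by them.

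Each symbol kept its row of highest mean count. Rows of 1 symbol more than 10 rows apart in the table were taken as separate places. Tests used edgeR 4.0.16 in R 4.3.3 (filterByExpr by group, TMM, estimateDisp, glmQLFit with legacy = FALSE, glmQLFTest, Benjamini-Hochberg adjustment over all genes tested). The embryonic comparison used 4 libraries and no replicate block, and both adult comparisons used all 5. Standard errors came from dividing the size of each log2 fold change by the square root of its F statistic. The code was tested on simulated data. Folds against 0 counts are bounds against 3 counts in the adult library.

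Members and lists were chosen with earlier results of these data known. In complex I, 1 called member is counted but not reported by name here. The rule named each called member, in a complex with none the 2 members with the highest mean CPM, duplicated genes whose leading copy or share (by over 20 points) differed, the 3 leading members per length, and up to 3 genes of each pathway list. Other members named as values were chosen after their values were seen, and so were higd1a, ndufaf2, cyc1, ogdhb, idh3b, dldh, mt-rnr1, mt-rnr2 and the list genes given beside the largest changes. The citrate cycle list first held dld, which the deposited table names deltaD, in place of the dehydrogenase dldh, and was corrected after its values were seen. Alternatives were RLE scaling, total counts, other filters, rows summed, leaving out each embryonic library, DESeq2 1.42.0, a replicate block, fitting all 5 libraries, and leaving out marker genes of other cells; edgeR's older quasi-likelihood fit and the sum over places were added after the data were seen.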

Additional observations from a re-analysis of the deposited data

How the results depend on the processing

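Scaling moved the adult comparisons most, in size and not in direction. Against basal precursors the median log2 fold change of the members was -0.52 with RLE factors, -0.52 with DESeq2, -1.54 with total counts and -0.13 after subtracting the median of all genes; against periderm it was -0.75, -0.75, -1.82 and -0.16, and -0.99 with no filter beyond 1 count, where the value relative to all genes was 0.07. With total counts 29 members were lower than in basal precursors and 47 lower than in periderm; over all genes that scaling gave 1506 higher and 3896 lower against basal precursors, beside 2112 and 2087 with TMM, and 1793 and 5136 against periderm, beside 2590 and 2621. Adult to basal and adult to periderm ratios of the summed level were 0.736 and 0.644 with RLE factors and 0.366 and 0.308 with total counts. Leaving out 1 embryonic library at a time gave 4 to 7 members lower against basal precursors (median -0.83 to -0.52) and 4 to 13 against periderm (median -0.93 to -0.79), the fewest without periderm replicate 1 (4 and 5) and without periderm replicate 2 (5 and 4). Relative to all genes the medians became -0.30 without basal replicate 1 against basal precursors and -0.30 without periderm replicate 1 against periderm, beside -0.26 with the filter of 5 CPM and -0.10 with all rows summed there. In the embryo the median ran from -0.26 to -0.02 on leaving out 1 library. There, 1 member was lower with total counts and with DESeq2. With the replicate number as a block 0 members were called and the median was -0.16; the numbers are shared only as labels (correlation of deviations 0.22 over 2 pairs), and over all genes the block gave 203 higher and 435 lower calls, beside 146 and 393. DESeq2 gave 557 and 841 over all genes there, and rows summed 25 and 177. The cause of these shifts was not tested. Depth limits ndufb5, uqcrq and ndufa4, which rest on 6, 5 and 0 adult counts.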
